A study of Mus musculus with 8 samples.

Results

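Non-coding host transcripts, spliced RNAs whose introns carry small nucleolar RNAs (snoRNAs), were followed in mouse CD8+ T cells. They were Gas5, Zfas1, Snhg1, Snhg3, Snhg4, Snhg5, Snhg6, Snhg8, Snhg12 and Snhg15, found by their symbols as 10 of the 55291 genes of the deposited table. All 10 passed the filter on low counts, with 778 or more counts in every library, and were tested among 16630 genes. RNA was sequenced from CD8+ T cells that had been purified from the spleens of naïve mice with a magnetic isolation kit, with no fluorescence sort named. The sample titles call the cells naïve CD8 T cells. There were 8 libraries of polyadenylated RNA: 4 titled ATF4 overexpression, whose genotype label is ATF4 Tg/Tg (ATF4OE below), and 4 labelled WT. The design text names the mice ATF4Tg/Tg or E8IcreATF4Tg/Tg, which reads as the transgene without and with Cre under E8I, a Cd8a enhancer active in mature CD8+ T cells. The mice behind the WT label may therefore carry the transgene without Cre, and the term WT is used only as the label gives it. The age and strain of the mice were not given in the sources used here. Whether the 4 samples of each group are separate mice is not stated, and the p-values reflect only how much these samples vary, which could be technical. The series concerns ATF4 in CD8+ T cells of tumors, and the comparison here asks how cells of mice without a tumor differ between the 2 labelled groups.

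A snoRNA host gene is transcribed by RNA polymerase II, the snoRNAs are cut out of its introns, and the exons are joined and exported. Box C/D snoRNAs guide 2′-O-methylation and box H/ACA snoRNAs guide pseudouridylation of ribosomal RNA. The spliced hosts with no long reading frame are typically engaged by ribosomes and removed by nonsense-mediated decay, so their level can change through synthesis or through decay. Many start at a C followed by pyrimidines, the terminal oligopyrimidine (TOP) tract that is also found on the mRNAs of ribosomal proteins and elongation factors, whose translation depends on mTOR. ATF4 is the transcription factor of the integrated stress response, and its targets include amino acid transporters and synthetases. Gas5, the best studied of these hosts, was named for its accumulation in growth-arrested cells, and its spliced RNA has been described as a decoy for the glucocorticoid receptor.

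The starts of the hosts were read from the RefSeq promoter table (GRCm38.p6), which matched 8 of the 10 by symbol, all but Snhg4 and Snhg6. Shown here are the stretches from 20 bases before to 30 bases after the annotated start for the 4 hosts whose levels or pattern between libraries the results below turn on and for Gas5, 5′ to 3′ on the transcribed strand. Capitals mark a tract of C followed by at least 4 pyrimidines whose C lies within 10 bases of the annotated start.
Snhg15: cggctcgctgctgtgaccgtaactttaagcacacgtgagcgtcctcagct
Snhg12: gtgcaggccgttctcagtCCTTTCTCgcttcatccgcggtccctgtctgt
Snhg8: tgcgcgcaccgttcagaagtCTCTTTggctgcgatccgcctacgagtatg
Snhg5: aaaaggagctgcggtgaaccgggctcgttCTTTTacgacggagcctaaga
Gas5: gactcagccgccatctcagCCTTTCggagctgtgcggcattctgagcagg
These stretches lie at chr11:6528731-6528780 (minus strand) for Snhg15, chr4:132308658-132308707 (plus) for Snhg12, chr3:123508307-123508356 (minus) for Snhg8, chr9:88522868-88522917 (minus) for Snhg5 and chr1:161035146-161035195 (plus) for Gas5. The Gas5 stretch is at the second of its 2 listed starts. With Snhg3 (CTTCC), 5 of the 8 matched hosts held such a tract, in 5 of their 9 windows, since Gas5 has none at its first listed start. It was not found in Zfas1, Snhg1 or Snhg15. The same search found a tract in 29.7% of all 32851 windows of the table, so the letters alone are common. Snhg15 and Snhg12, the hosts with the smallest p-values below, stand on either side of this split. The split rests on the RefSeq starts. The GENCODE M21 starts of Snhg12, Snhg8, Snhg5 and Gas5 lie upstream of the stretches shown and were not searched, while that of Snhg15 is the same.

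The bases that separate Snhg1 from its head-to-head neighbour Slc3a2 are shown because these neighbours differ in the comparison. Snhg1 is on the plus strand and Slc3a2 on the minus strand, with their GENCODE M21 starts 106 bases apart. The line gives the plus strand from the base after the Slc3a2 start, with Snhg1 from its own start in capitals (chr19:8723370-8723536, GRCm38).
Slc3a2 to Snhg1: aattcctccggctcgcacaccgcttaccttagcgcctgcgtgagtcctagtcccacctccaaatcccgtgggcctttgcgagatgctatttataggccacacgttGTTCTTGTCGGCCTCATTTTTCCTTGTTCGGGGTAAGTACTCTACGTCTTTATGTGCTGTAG
The 105 bases between the starts have a GC content of 56.2%. A motif of the kind that ATF4 binds with C/EBP partners (TGATGNAA, both strands) was found in 0 of the 8 matched hosts within windows of 300 bases (250 before and 50 after the start), in 1 copy each in Asns and Trib3, in no copy in Slc3a2, and in 3.97% of all windows. No match says only that these letters are not in the window.

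The libraries held 93478686 to 125974143 estimated counts each, and the 10 hosts took 0.0765% to 0.113% of them. Levels are CPM, counts scaled to the TMM-corrected library size. Atf4 lay at 285, 308, 165 and 165 CPM in WT replicates 1 to 4 and at 445, 427, 228 and 212 CPM in ATF4OE replicates 1 to 4. Its log2 fold change was 0.51 ± 0.31 (SE, edgeR adjusted p = 0.37), and with the replicate number as a term it was 0.48 (adjusted p = 2.2e-04). Asns, an ATF4 target that makes asparagine, averaged 0.307 CPM in WT and 166 CPM in ATF4OE (log2 fold change 9.10 ± 0.21). Trib3, another target, averaged 1.25 and 71.7 CPM (5.84 ± 0.18). Replicates 1 and 2 of both groups, whose column names are written without a hyphen, stood apart from replicates 3 and 4, written with one, and these are called set 1 and set 2. No label calls them batches, and both hold 2 libraries of each group, so the differences of the 10 hosts are also given within each set.

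Markers of the labelled cell type were present in all libraries, with Cd8a at a mean of 1395 CPM in WT and 1085 CPM in ATF4OE. Of all tested genes, 4.89% were called lower and 9.16% higher in ATF4OE by edgeR. Of 12 CD8 T cell markers 8 fell, and their summed level was 7504 to 7779 CPM in WT libraries and 6039 to 6156 CPM in ATF4OE libraries. Higher in ATF4OE were 7 of 10 myeloid markers (summed 14.5 to 70.1 CPM in WT, 124 to 265 CPM in ATF4OE), 7 of 10 erythroid markers (11.9 to 15.9 and 81.7 to 280.0 CPM), 7 of 10 B cell markers (615 to 792 and 625 to 1006 CPM), 2 of 8 NK cell markers (109 to 219 and 215 to 459 CPM), 3 of 5 CD4 T cell markers (15.5 to 29.6 and 35.1 to 71.5 CPM) and 4 of 6 platelet markers (26.7 to 36.5 and 67.7 to 81.6 CPM). No marker was at 0 in every library, and Gp9 was at 0 in every WT library. These shifts move with every difference between the groups given below, and their part in the results was not tested. In bulk RNA, fewer cells of a type and less RNA per cell cannot be told apart.

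Snhg15 and Snhg12 fell in ATF4OE, to 60.7% and 75.8% of their WT means, and Snhg8 averaged 65.6% of its WT mean. The other 7 hosts averaged 83.5% to 94.8% of their WT means, and none of them passed the test. All 10 log2 fold changes were below 0, as were 8797 of all 16630 tested genes, with a median of -0.19 against -0.02 over all tested genes. By edgeR's quasi-likelihood test at an adjusted p under 0.05, 2 of 10 hosts were called lower and 0 higher, where 4.89% of all tested genes were called lower and 9.16% higher (14.1% in either direction). At an unadjusted p under 0.05 there were 3 lower and 0 higher. The share of all tested genes at an unadjusted p was not computed, here or for the lists below. DESeq2 called 3 lower, beside 5.47% of the genes it tested, and limma-voom 2, beside 4.94%, neither any higher. Of the tested genes that averaged 7 CPM or more, the range in which the hosts lie, 7.7% were called lower. With the replicate number as a term, 3 hosts were called lower, beside 13.5% of all tested genes.

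**Figure D1:**
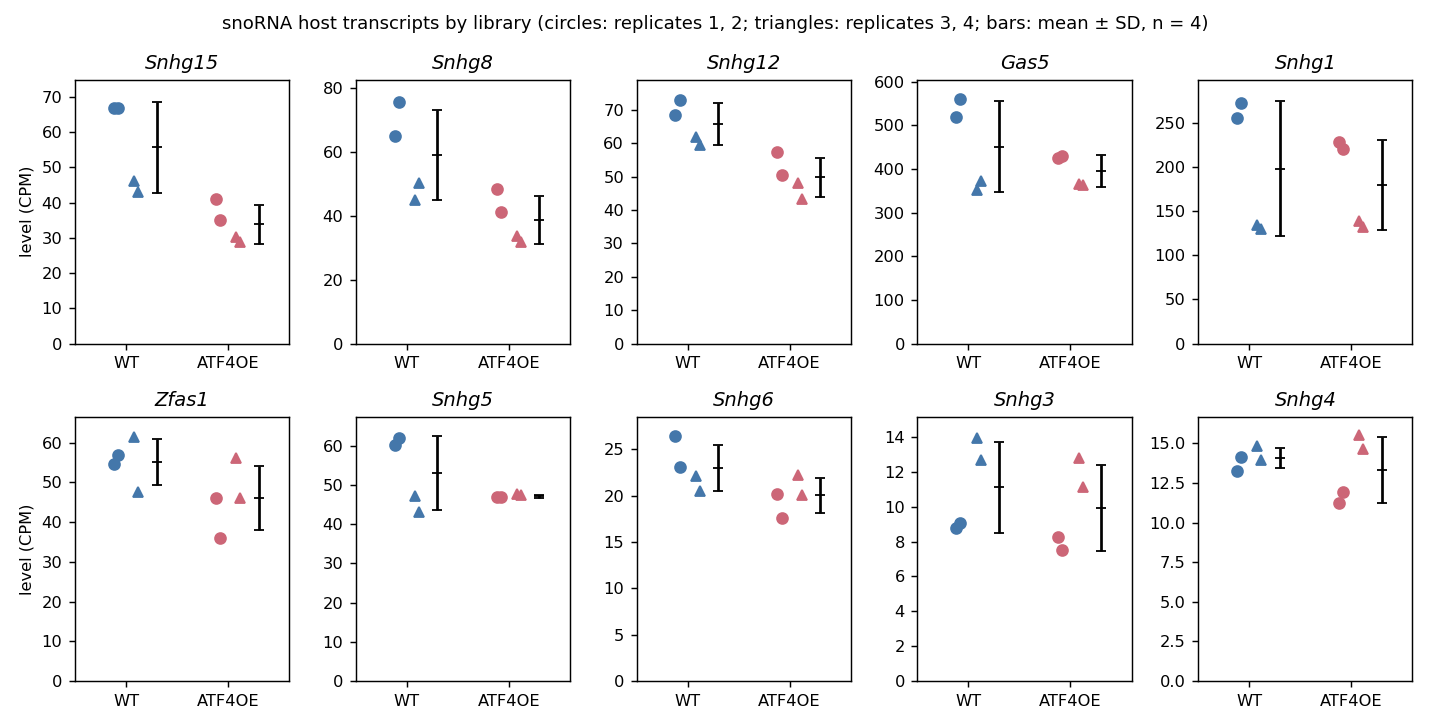
Level of each of the 10 snoRNA hosts in every library (CPM, linear axes from 0), WT in blue and ATF4OE in red, with circles for replicates 1 and 2, triangles for replicates 3 and 4, and mean ± SD (n = 4) as bars. The groups do not overlap for Snhg15 and Snhg12. The mean of the WT circles lies further from that of the WT triangles than the group means lie apart for Snhg1, Gas5, Snhg5, Snhg6 and Snhg3. The same holds, by a smaller margin, for Snhg15 and Snhg8.

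Snhg15 (chromosome 11, 6525591 to 6528760, minus strand) hosts the H/ACA snoRNA Snora9. It lay at 66.8, 66.9, 46.2 and 43.0 CPM in WT replicates 1 to 4 and at 41.0, 35.2, 30.1 and 28.8 CPM in ATF4OE replicates 1 to 4. Every ATF4OE library was below every WT library, and in both groups set 1 was above set 2. The means were 55.7 ± 12.9 and 33.8 ± 5.56 CPM (SD, n = 4). The log2 fold change was -0.72 ± 0.17 (SE, edgeR adjusted p = 0.020). Within set 1 it was -0.78 ± 0.10 (adjusted p = 0.0026) and within set 2 it was -0.60 ± 0.08 (adjusted p = 0.0032), each from 2 libraries a group. The difference between the sets was 0.21 (adjusted p of the interaction 0.55). The call was lost without WT replicate 1 (adjusted p = 0.057), WT replicate 2 (0.056), ATF4OE replicate 3 (0.058) or ATF4OE replicate 4 (0.060), with log2 fold changes from -0.66 to -0.62 in these fits.

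Snhg12 (chromosome 4, 132308623 to 132311024, plus strand) hosts the H/ACA snoRNAs Snora16a, Snora44 and Snora61 and the snoRNA Snord99. Its WT levels were 68.5, 73.1, 61.9 and 59.5 CPM and its ATF4OE levels 57.3, 50.6, 48.0 and 43.2 CPM (replicates 1 to 4). The lowest WT library lay just above the highest ATF4OE library, and the 2 groups of 4 did not overlap. From 65.7 ± 6.21 to 49.8 ± 5.86 CPM (SD, n = 4), the log2 fold change was -0.40 ± 0.10 (SE, edgeR adjusted p = 0.027). It was alike in size in both sets, -0.36 ± 0.10 in set 1 (adjusted p = 0.058) and -0.41 ± 0.08 in set 2 (adjusted p = 0.012), with an interaction of -0.02 (adjusted p = 0.98). Single libraries decided the call: the adjusted p was 0.070, 0.074 and 0.051 without WT replicates 1, 2 and 3, and 0.052, 0.074 and 0.074 without ATF4OE replicates 2, 3 and 4. Snhg12 and Snhg15 are the 2 hosts whose groups do not overlap, and over all tested genes 8.66% were lower in ATF4OE with no overlap.

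Snhg8 (chromosome 3, 123507552 to 123508404, minus strand) hosts Snora24. WT libraries held it at 65.0, 75.6, 44.8 and 50.3 CPM, and ATF4OE libraries at 48.3, 41.1, 33.5 and 31.6 CPM (replicates 1 to 4). The groups overlapped across sets, since ATF4OE replicate 1 was above WT replicate 3, and did not overlap within either set. The means were 58.9 ± 14.0 and 38.6 ± 7.63 CPM (SD, n = 4), with a log2 fold change of -0.61 ± 0.18 (SE, edgeR adjusted p = 0.055). With the replicate number as a term it was -0.60 ± 0.08 and passed (adjusted p = 9.9e-04). Within set 1 it was -0.62 ± 0.12 (adjusted p = 0.014) and within set 2 -0.54 ± 0.08 (adjusted p = 0.0054). It also passed without WT replicate 3 (adjusted p = 0.038) or ATF4OE replicate 1 (adjusted p = 0.033).

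**Figure D2:**
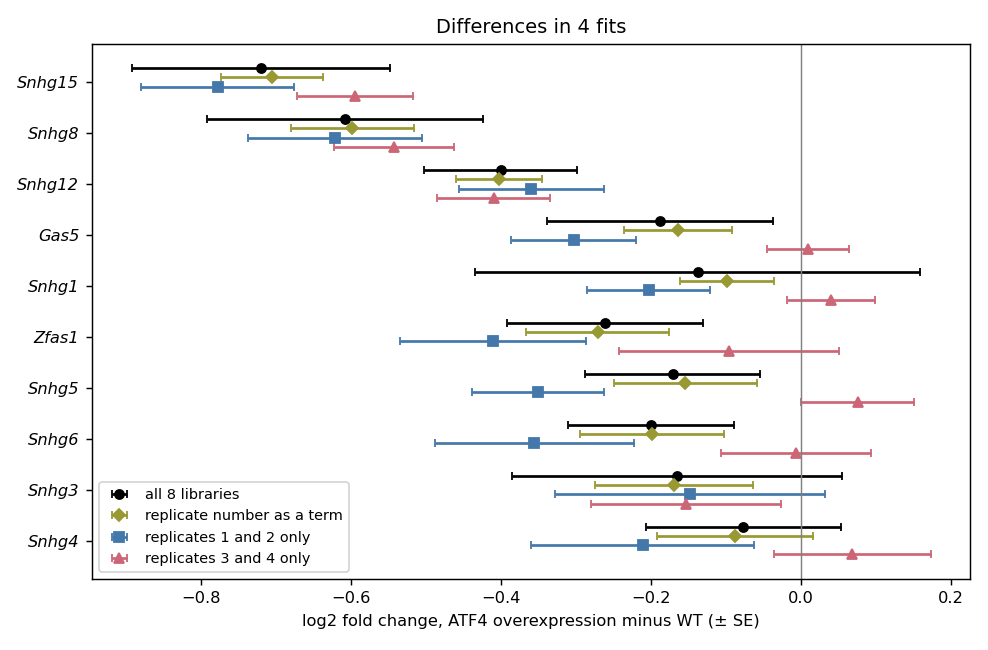
Log2 fold change (ATF4OE minus WT, ± SE) of each host in the fit of all 8 libraries, with the replicate number as a term, and in the fits of replicates 1 and 2 and of replicates 3 and 4 alone. Snhg15, Snhg8 and Snhg12 lie at -0.36 or lower in all 4 fits, while Gas5, Snhg1, Snhg5 and Snhg4 lie below 0 in set 1 and slightly above 0 in set 2.

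Gas5 (chromosome 1, 161034422 to 161038539, plus strand) carries 9 annotated snoRNA names, Snord47, Snord78 and Snord80 among them, and was the most abundant of the 10. It was at 520, 559, 352 and 373 CPM in WT and at 426, 429, 365 and 364 CPM in ATF4OE (replicates 1 to 4). The 2 WT libraries of set 1 were the highest, and the other 2 WT libraries lay on either side of the ATF4OE libraries of set 2. Means of 451 ± 104 and 396 ± 36.6 CPM (SD, n = 4) gave a log2 fold change of -0.19 ± 0.15 (edgeR adjusted p = 0.51). The value was -0.30 ± 0.08 in set 1 (adjusted p = 0.063) and 0.01 ± 0.06 in set 2 (adjusted p = 0.93), a difference of 0.34 between the sets (adjusted p of the interaction 0.14).

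Snhg5 (chromosome 9, 88521050 to 88522929, minus strand) hosts Snord50a and Snord50b. It lay at 60.3, 62.0, 47.2 and 43.0 CPM in WT and at 46.9, 46.9, 47.6 and 47.4 CPM in ATF4OE (replicates 1 to 4). The 4 ATF4OE libraries were nearly level, and the WT libraries of set 1 stood above those of set 2. The log2 fold change over all libraries was -0.17 ± 0.12 (edgeR adjusted p = 0.42). In set 1 it was -0.35 ± 0.09 and passed the test (adjusted p = 0.045), and in set 2 it was 0.08 ± 0.08 (adjusted p = 0.54). The difference between the sets, 0.46 ± 0.11, had an adjusted p of 0.095.

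Zfas1 (chromosome 2, 167062934 to 167065862, plus strand) hosts Snord12 and 2 snoRNAs with provisional names. Its levels were 54.7, 57.0, 61.4 and 47.7 CPM in WT and 46.1, 36.1, 56.1 and 46.0 CPM in ATF4OE, with overlap in both directions. The log2 fold change was -0.26 ± 0.13 (edgeR adjusted p = 0.24), from -0.41 ± 0.12 in set 1 to -0.10 ± 0.15 in set 2. Snhg6 (chromosome 1, 9941959 to 9944118, minus strand) lay at 26.4, 23.0, 22.1 and 20.5 CPM in WT and at 20.2, 17.6, 22.3 and 20.1 CPM in ATF4OE. Its value was -0.20 ± 0.11 (adjusted p = 0.30), again with the larger part in set 1 (-0.36 ± 0.13) and -0.01 ± 0.10 in set 2. Its 3′ end overlaps 127 exon bases of the opposite-strand gene Mcmdc2, which averaged 0.253 CPM in WT and 0.222 CPM in ATF4OE.

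Snhg3 and Snhg4 were the least abundant by CPM. Snhg3 (chromosome 4, 132348014 to 132353686, minus strand), the host of Snora73a and Snora73b, lay at 8.79, 9.06, 14.0 and 12.7 CPM in WT and at 8.25, 7.50, 12.8 and 11.1 CPM in ATF4OE. Set 2 was above set 1 in both groups, and the log2 fold change was -0.16 ± 0.22 (edgeR adjusted p = 0.73). Snhg3 shares 135 exon bases with the same-strand coding gene Rcc1, so reads there were divided by Salmon's model. Rcc1, a chromatin-bound exchange factor for Ran, averaged 21.1 ± 3.03 CPM in WT and 28.0 ± 7.46 CPM in ATF4OE (log2 fold change 0.41 ± 0.19, adjusted p = 0.20), and with the replicate number as a term its adjusted p was 0.016. Snhg4, a host whose symbol was not matched in the annotation used for coordinates, lay at 13.3, 14.2, 14.8 and 14.0 CPM in WT and at 11.2, 11.95, 15.5 and 14.6 CPM in ATF4OE. The ATF4OE libraries of set 1 were the lowest of the 8, and the log2 fold change was -0.08 ± 0.13 (adjusted p = 0.79).

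The sets themselves differed in level for 6 of the 10 hosts. With group and set in the model, Snhg1, Snhg8, Snhg15, Gas5 and Snhg12 were higher in set 1 and Snhg3 was higher in set 2, beside 11.3% and 12.2% of all tested genes called in these directions. Relative to set 1, set 2 was at -0.86 on the log2 scale for Snhg1 (adjusted p = 6.9e-06), -0.51 for Snhg8 (9.1e-04), -0.48 for Snhg15 (9.0e-04), -0.40 for Gas5 (0.0022), -0.23 for Snhg12 (0.022) and 0.59 for Snhg3 (0.0024). The other 4 hosts did not pass this test (Zfas1 0.14, Snhg4 0.22, Snhg5 -0.21, Snhg6 -0.03). In set 1 all 10 differences between ATF4OE and WT were below 0 and 3 were called lower (Snhg15, Snhg8 and Snhg5), beside 3.07% of the genes tested there. In set 2, 6 were below 0 and 3 were called lower (Snhg15, Snhg8 and Snhg12), beside 8% of the genes tested there. The median over all genes tested was -0.01 in set 1 and 0.01 in set 2. The interaction was positive for 9 of 10 hosts. By edgeR it was called for 0 of 10 (adjusted p from 0.095 to 0.99), beside 0.998% of all tested genes. Unadjusted, 3 hosts had an edgeR p under 0.05, and the share of all tested genes at that threshold was not computed.

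Snhg1 (chromosome 19, 8723475 to 8726443, plus strand) carries 8 annotated snoRNA names, Snord22 among them. It lay at 255, 273, 134 and 130 CPM in WT and at 228, 220, 139 and 133 CPM in ATF4OE (replicates 1 to 4). The 4 libraries of set 1 were all above the 4 of set 2. In set 1 both ATF4OE libraries were below both WT libraries, and in set 2 the groups overlapped. The log2 fold change was -0.14 ± 0.30 (edgeR adjusted p = 0.84), -0.20 ± 0.08 in set 1 (adjusted p = 0.18) and 0.04 ± 0.06 in set 2 (adjusted p = 0.69). It was 0.0074 without WT replicate 1 and 0.056 without WT replicate 2.

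Slc3a2, which encodes the 4F2 heavy chain that pairs with amino acid transporters such as Slc7a5 and is a known ATF4 target, starts next to Snhg1 on the opposite strand. It lay at 109, 118, 105 and 103 CPM in WT and at 403, 413, 370 and 401 CPM in ATF4OE (replicates 1 to 4). All ATF4OE libraries were well above all WT libraries, in both sets, with a log2 fold change of 1.87 ± 0.07 (adjusted p = 2.9e-07). The log2 ratio of Snhg1 to Slc3a2 counts, which needs no normalization between libraries, was 1.23, 1.21, 0.35 and 0.33 in WT and -0.82, -0.91, -1.42 and -1.59 in ATF4OE. The mean ratio differed by -1.96, with no overlap and in 4 of 4 same-numbered pairs (exact two-sided permutation test, p = 0.029, the smallest that 70 assignments allow, adjusted over 3 pairs 0.086).

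**Figure D3:**
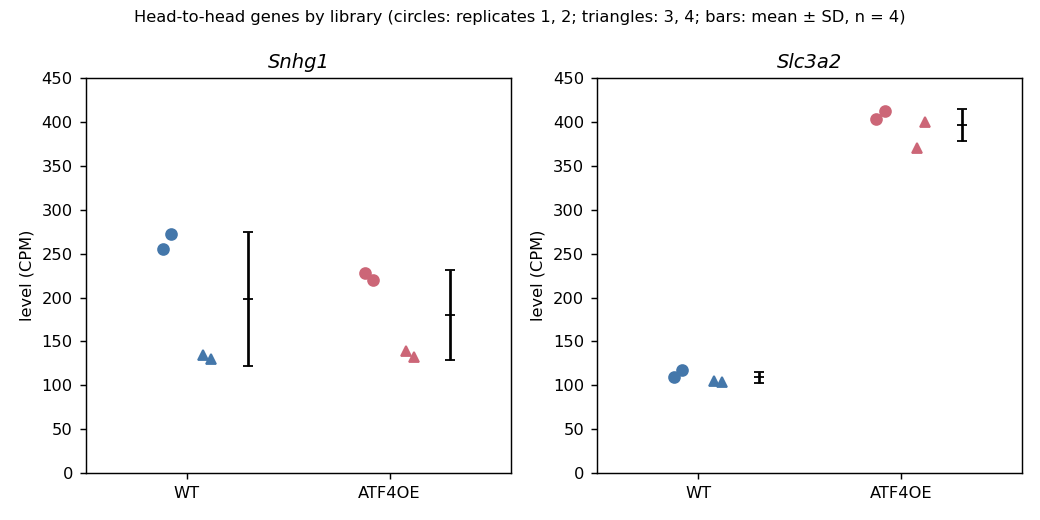
Levels of the head-to-head genes Snhg1 and Slc3a2 in every library (CPM, same linear axis from 0), with circles for replicates 1 and 2, triangles for replicates 3 and 4, and mean ± SD (n = 4) as bars. Slc3a2 lies at 103 to 118 CPM in WT and 370 to 413 CPM in ATF4OE. Snhg1 separates by set, and its groups overlap over all libraries, though not within replicates 1 and 2.

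The other head-to-head pairs did not show such a gap. Gas5 and the zinc finger gene Zbtb37 start 427 bases from each other, with gene bodies that overlap at their starts and no shared exon base. Zbtb37 averaged 80.7 CPM in WT and 66.2 CPM in ATF4OE (log2 fold change -0.29, adjusted p = 0.57, and 0.0027 with the replicate number as a term). The log2 ratio of Gas5 to Zbtb37 moved by 0.12 (exact permutation test, p = 0.51, adjusted 0.77). Zfas1 and Znfx1, an RNA helicase gene, share 82 exon bases on opposite strands, and whether counting used strand was not given in the sources used here. Znfx1 averaged 100.01 ± 4.68 CPM in WT and 83.9 ± 8.95 CPM in ATF4OE (log2 fold change -0.25, adjusted p = 0.083, and 0.0066 with the replicate number as a term). The Zfas1 to Znfx1 ratio differed by -0.01 (exact permutation test, p = 1.0), with a range of -0.17 to 0.14 when single libraries were left out.

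Levels of different hosts were compared per kilobase of merged exons in WT. Gas5 stood first at 120 ± 27.6 CPM per kilobase (SD, n = 4), followed by Snhg8 (69.1 ± 16.4), Snhg1 (66.7 ± 25.8), Snhg15 (41.0 ± 9.50), Snhg5 (30.7 ± 5.45), Snhg12 (27.4 ± 2.58), Snhg6 (20.1 ± 2.19), Zfas1 (18.9 ± 1.96) and Snhg3 (11.3 ± 2.64). In this order the ranges of mean ± SD overlapped between Snhg8 and Snhg1, Snhg1 and Snhg15, Snhg15 and Snhg5, Snhg5 and Snhg12, and Snhg6 and Zfas1. Among hosts not next to each other, only those of Gas5 and Snhg1 overlapped, by a narrow margin. Merged exons include retained introns, which in Snhg1, Zfas1, Snhg8 and Snhg12 cover the whole gene. With the median length of the annotated transcripts instead, Gas5 (717 CPM per kilobase) was followed by Snhg1 (329), Snhg8 (112) and Snhg15 (93.3), and Snhg3 (25.5) stayed last, so the order in the middle rests on the length used. No length was matched for Snhg4.

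The snoRNAs themselves were not measured by these libraries. GENCODE M21 places 31 snoRNA names inside 9 of the hosts on the same strand, 9 in Gas5, 8 in Snhg1, 4 in Snhg12, 3 in Zfas1, 2 each in Snhg3 and Snhg5, and 1 each in Snhg6, Snhg8 and Snhg15. Of these, 30 are rows of the table and 3 have any count: Snora73b with 405, Snora73a with 271 and Snord22 with 74 over all 8 libraries, beside 809177 for the 10 hosts. The levels given here are sums over all annotated transcripts of a host in polyadenylated RNA, with or without retained introns, and not levels of the snoRNAs.

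Other non-coding snoRNA hosts were read for comparison. Of the 13 that the table held, 9 were tested, 1 was called lower and 0 higher by edgeR (2 lower and 0 higher at an unadjusted p under 0.05 and by DESeq2, 1 lower and 0 higher by limma-voom), and the median log2 fold change was -0.36. Over all tested genes 4.89% were called lower in this fit. With the replicate number as a term 3 of the 9 were called lower, beside 13.5% of all tested genes. Snhg17 averaged 80.4 ± 6.67 CPM in WT and 59.5 ± 3.09 CPM in ATF4OE (-0.44 ± 0.08, adjusted p = 0.0050). Epb41l4aos (-0.51, adjusted p = 0.052) and Snhg16 (-0.36, adjusted p = 0.24) passed only with that term (adjusted p = 0.0052 and 0.013). Snhg20 (-0.20), Dancr (-0.09), Snhg14 (-0.92), Rian (-1.21), Snhg10 (0.41) and Snhg9 (0.35) did not pass in either fit, and the last 4 averaged under 1.5 CPM in both groups.

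The protein-coding hosts fell into unlike groups. All 19 ribosomal protein genes with intronic snoRNAs fell, with log2 fold changes from -0.80 to -0.35 and a median of -0.58. Over all tested genes 4.89% were called lower and 9.16% higher by edgeR. Rpl12 went from 2512 ± 257 to 1445 ± 86.2 CPM (-0.80 ± 0.09, adjusted p = 3.5e-04), and Rpl30, Rps3 and Rpl13a had values of -0.72, -0.63 and -0.58. Of 20 other coding hosts, 4 were called lower and 0 higher by edgeR, with a median of -0.13. At an unadjusted p under 0.05, and by DESeq2, 5 fell on the lower side and 1 on the higher side, against 6 and 2 with the replicate number as a term. With that term 13.5% of all tested genes were called lower and 13.7% higher. The 4 were Tpt1 (-0.69), a growth-related cytosolic protein, the elongation factors Eef1b2 (-0.70) and Eef2 (-0.25), and Rack1 (-0.53), a protein of the small ribosomal subunit. All 4 are also TOP mRNAs. Of 18 TOP mRNAs listed as non-ribosomal, Rack1 included, 10 fell, these 4 among them, with a median of -0.30. Eef1a1 (-0.51) and Eef1g (-0.55) were others of the 10. These lists were chosen with earlier results of these data known, so their direction is a description.

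**Figure D4:**
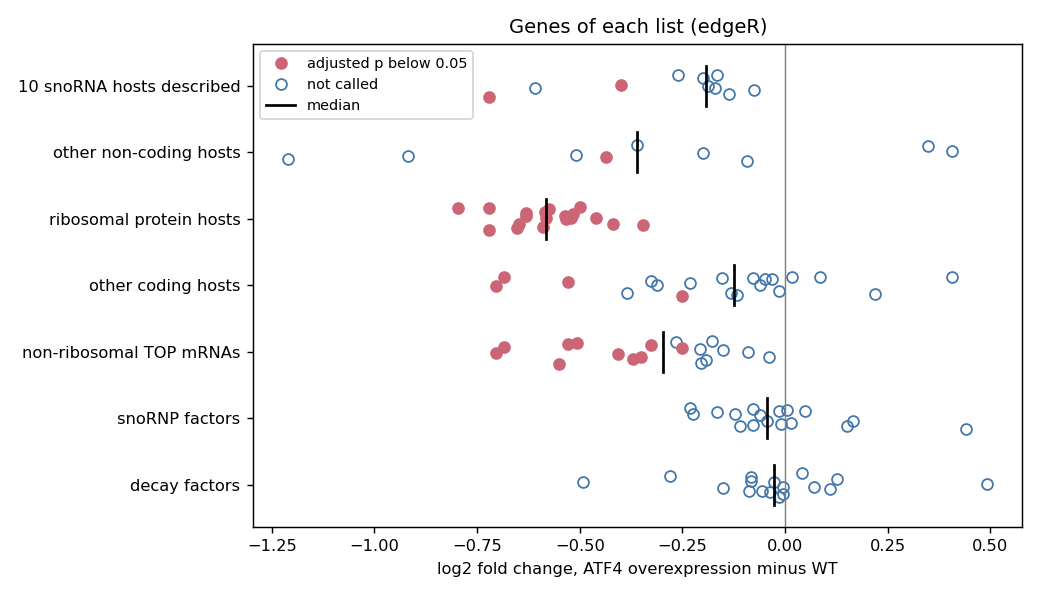
Log2 fold change (ATF4OE minus WT) of every tested gene of 7 lists, filled where the edgeR adjusted p is under 0.05, with the median of each list as a line. The ribosomal protein hosts lie between -0.80 and -0.35 and are all called, most of the 10 hosts described here lie nearer to 0, and the snoRNP and decay factors are centred close to 0 with none called.

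The 10 hosts were then set against the summed counts of the 19 ribosomal protein hosts within each library. All 19 had been called lower, so any gene that fell less than their sum has a higher ratio. The direction of these ratios was thus largely set by that choice, and no share over all genes was computed for them. The mean log2 ratio was higher in ATF4OE for 8 of 10 hosts, by 0.49 for Snhg4, 0.48 for Snhg1, 0.42 for Snhg5, 0.41 for Gas5, 0.40 for Snhg3, 0.37 for Snhg6, 0.30 for Zfas1 and 0.17 for Snhg12. It differed by -0.13 for Snhg15 and by -0.03 for Snhg8. Groups did not overlap for Snhg4 and Snhg5 (exact permutation test, p = 0.029 each, the smallest possible), and adjusted over the 10 hosts the p-values ran from 0.14 to 0.91, so none passed. For 8 hosts, Snhg15 among them, all 4 same-numbered pairs moved in the direction of the mean, where 4 pairs cannot give a p below 0.125 when exchanged within numbers.

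Factors that make or use snoRNAs and factors of the decay pathway gave few calls. Of 17 snoRNP proteins and assembly factors 0 were called by edgeR, DESeq2 or limma-voom, 1 had an unadjusted p under 0.05, and the median was -0.04. With the replicate number as a term Shq1 was called higher and Nufip1 lower, beside 13.7% of all tested genes called higher and 13.5% lower in that fit. Fbl, the methyltransferase of box C/D particles, averaged 169 ± 12.8 CPM in WT and 155 ± 9.33 CPM in ATF4OE (-0.12, adjusted p = 0.36), and Nop56, a core protein of the same particles, had a value of -0.23 (adjusted p = 0.20). Of 17 nonsense-mediated decay factors 0 were called by the same 3 tools, 2 had an unadjusted p under 0.05, and the median was -0.03. With the replicate number as a term 3 were called lower and 1 higher. The lower ones were Smg9 (-0.28, adjusted p = 0.056 without and 0.0027 with that term), Smg1, the kinase of the pathway (-0.49, 0.17 and 3.6e-05), and Smg5, and the higher one was Magohb (0.49, 0.30 and 0.027). Of 21 tested genes of RNA polymerase I and ribosomal RNA synthesis 2 fell, Utp20 (-0.32, adjusted p = 0.029) and Taf1b (-0.24, adjusted p = 0.048), with a median of -0.09. At an unadjusted p under 0.05 there were 5 lower, and DESeq2 called 3 lower and limma-voom 1. With the replicate number as a term 5 of these 21 were called lower, beside 13.5% of all tested genes.

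Genes whose log2 CPM followed 2 of the hosts most closely over the 8 libraries were listed from 8763 tested genes that averaged 10 CPM or more, as a description that includes both the group and the set. For Snhg15, the host with the smallest p, they were Ofd1 (r = 0.99), Celsr1 (0.99) and Ipo8 (0.99). For Snhg4, the host with the highest log2 fold change, they were Sec13 (0.99), Alkbh8 (0.99) and Clic1 (0.98). Of these 6 genes only Celsr1 was itself called between the groups (-0.40, adjusted p = 0.021).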

How the data were processed

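Splenic CD8+ T cell RNA of 4 ATF4OE and 4 WT libraries was analysed, with groups and replicate numbers from the sample titles. Estimated counts for each gene symbol were deposited by the authors as 1 table, from Salmon and GRCm38.p6 per the submitters' processing notes. Salmon divides reads shared by overlapping genes by a model. Annotation release, strand setting and filters: not given in the sources used here. Estimated counts were rounded, and 0 columns were unused. Of 55291 genes, 30015 had no estimated count in any library before rounding.

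Groups were compared with edgeR 4.0.16 in R 4.3.3 (quasi-likelihood test, robust, TMM, filterByExpr, group as the only term) and Benjamini-Hochberg adjustment over 16630 genes, with calls at an adjusted p under 0.05. Standard errors came from the F statistic. The test was run on simulated data first. Ratios within a library (counts plus 0.5) were compared by exact permutation over samples, and the ratio to the ribosomal protein hosts was added after seeing the data. Alternatives used DESeq2 1.42.0 and limma-voom 3.58.1, other scalings and filters, single libraries left out, fits within sets, and the replicate number as a term. Coordinates, snoRNAs and lengths are from GENCODE M21, promoters from RefSeq. Depth of 93478686 to 125974143 counts per library gave each host at least 778 counts in every library. Counts without molecular identifiers are not independent molecules.

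Replicates differed by a chi-square per degree of freedom of at least 41.2, and none was counted as a second deposit of another. This does not show that they came from separate animals. Over 8764 genes, deviations from the group means correlated at 0.60 to 0.67 between same-numbered libraries and at most 0.49 otherwise, and each library correlated best with its own number. Part of this match is the set. Libraries of the same set but another number correlated at 0.34 to 0.49, and those of different sets below 0. The numbers were taken as pairs from these data and not from the labels, and p-values with the replicate number as a term rest on that choice. The 10 hosts and all lists were chosen with earlier results of these data known. Named were the 10 hosts, coding neighbours that start within 1000 bases on the opposite strand or overlap exons, Atf4, Asns and Trib3, up to 4 genes of each other list by smallest p, all tested other non-coding hosts, and the 3 genes that correlate best with 2 hosts. Smg5 and the snoRNA rows were named beside this rule, after their values were seen.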

Additional observations from a re-analysis of the deposited data

Results flagged for a closer look

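Snhg5 was noted because its difference between ATF4OE and WT went in opposite directions in the 2 sets of libraries. In set 1 both ATF4OE libraries (46.9 and 46.9 CPM) were below both WT libraries (60.3 and 62.0 CPM), and in set 2 both (47.6 and 47.4 CPM) were above both WT libraries (47.2 and 43.0 CPM). The interaction was 0.46 ± 0.11 on the log2 scale and did not pass edgeR's test over all genes (adjusted p = 0.095), and its adjusted p was 0.13 with RLE factors and 0.11 with the stricter filter.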

How the results depend on the processing

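Snhg15 kept its direction in all 20 alternatives and Snhg8 and Snhg12 did too, and over the 10 hosts 169 results kept direction and side of the threshold, 14 lost the call, 8 gained it and 9 changed sign. When single libraries were left out, Snhg15 ranged from -0.83 to -0.62, Snhg12 from -0.48 to -0.34, Snhg8 from -0.73 to -0.47, Snhg1 from -0.30 to 0.056, the Zfas1 to Znfx1 ratio from -0.17 to 0.14, the Snhg8 ratio to ribosomal protein hosts from -0.17 to 0.083, hosts called lower from 0 to 3, genes called lower from 518 to 677 and higher from 1089 to 1431. Snhg12 lost its call with no scaling factors (-0.27, adjusted p = 0.096), the stricter filter of at least 10 CPM in 4 libraries (-0.35, 0.058), within set 1 (-0.36) and without 4 libraries (-0.57, 0.053). Those 4, left out after seeing the data, had under 250 genes at a count of 2 (ATF4OE replicates 1 and 2, WT replicates 1 and 4), and the rule planned for such libraries met none. Snhg8 gained a call with DESeq2 (-0.59, adjusted p = 0.016), the replicate block (-0.60), the set as a term (-0.60, 1.9e-04), within set 1 (-0.62) and within set 2 (-0.54), and Snhg5 within set 1 (-0.35). Signs changed within set 2 for Gas5 (0.0096), Snhg1 (0.041), Snhg4 (0.069) and Snhg5 (0.076), with no scaling factors for Snhg4 (0.055), and without the 4 libraries for Snhg3 (0.054) and Snhg4 (0.055). The interaction of Snhg3 was -0.020 with RLE factors and -0.0079 with the stricter filter.

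Hosts called lower were 1 with no scaling factors, 1 with the stricter filter and 1 without the 4 libraries. These fits called 2.32%, 5.46% and 1.94% of their tested genes lower. With single libraries left out, 3.02% to 3.96% of the tested genes were called lower. Genes called lower were 813 with group as the only term (4.89% of 16630 tested). They were 385 with no factors (2.32%) and 482 with the stricter filter (5.46% of 8831 tested). With the replicate block they were 2237 (13.5%), and with the set as a term 1927 (11.6%). Within sets 1 and 2 they were 528 (3.07%) and 1365 (8%), and without the 4 libraries 333 (1.94%). Genes called higher were 610 of 8831 with the stricter filter and 2334 of 19993 with DESeq2, against 1524 of 16630. They were 2327 of 16630 with the set as a term and 2434 of 17073 within set 2. With no factors the median of all genes moved from -0.02 to 0.11 and that of the hosts from -0.19 to -0.06, with 9 of 10 below 0, and the share of higher among called genes went from 65.2% to 83.5%. It was 50.5% with the replicate block, 54.7% with the set as a term and 79.0% without the 4 libraries. Among the hosts, the replicate block changed no call but that of Snhg8. The causes of these changes were not tested. Each of the 10 hosts had at least 778 counts in every library.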
